A study of Mus musculus with 15 samples.

Results

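The 4 genes described here encode Ly6 surface antigens of mouse T cells: Ly6a, Ly6c1, Ly6c2 and Ly6e. They were chosen by name, not by their measured values, although earlier results of these data were known at that time. All 4 were found among the 55536 named genes of the count table. Poly(A) RNA of CD8+ T cells was sequenced in 15 libraries, 5 in each of 3 groups, to ask what antigen and added costimulation change in the T cell transcriptome in vivo. All cells carried the OT-I transgenic T cell receptor on a C57BL/6J background, which recognizes an ovalbumin peptide presented by MHC class I. In the Ag group, OT-I cells transferred into C57BL/6J recipients met the peptide, and in the Ag+Costim group they met the peptide together with agonist antibodies to OX40 (CD134) and 41BB (CD137), which are TNF receptor family members of activated T cells. Spleen and lymph nodes of both groups were collected after 4 days by the labels, whereas the study's methods give a slightly shorter time. By those methods the sort took CD8+ T cells that carried the donor marker and the OT-I receptor chains. The study's methods give rat IgG as the control antibody of the Ag group, mice of both sexes, and a Rag-deficient background for the OT-I donors. The Naive group was purified from OT-I mice without transfer, so transfer into a host, time and antigen cannot be told apart between Naive cells and either primed group.

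Ly6 proteins are small, disulfide-bonded domains tethered to the outer membrane leaflet by a glycosylphosphatidylinositol (GPI) anchor. Ly6a encodes Sca-1, a marker of blood stem cells that is also found on activated T cells and is induced by interferons. Ly6c1 and Ly6c2 encode the Ly6C antigens, used in the mouse to mark inflammatory monocytes and antigen-experienced CD8+ T cells, and Ly6e encodes the thymocyte antigen Sca-2 (TSA-1), an interferon-inducible protein that limits the entry of some viruses.

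The genes lie within 1 stretch of chromosome 15 in the mm10 (GRCm38) build and the GENCODE M21 annotation, and no other annotated gene overlaps any of them. Ly6e occupies chr15:74955051-74959905 on the plus strand. Ly6a occupies chr15:74994877-74998031, Ly6c1 chr15:75044018-75048830 and Ly6c2 chr15:75108158-75111970, all on the minus strand. The coding sequences of the most abundant transcripts of Ly6c1 and Ly6c2 were 97.71% identical, with 9 differences in 393 bases. Ly6a shared 83.72% of aligned bases with Ly6c1, whereas Ly6e shared 55.15% to 57.64% with the other members. The 30-base window that separates Ly6c1 from Ly6c2 best is shown because a read reaching these letters can tell the genes apart. The labels and the deposited lane table give single reads of 50 bases, whereas the study's methods state a longer read, and the window shares given next hold for 50 bases. It is exon 2, coding bases 7 to 36, written 5′ to 3′ on the minus strand, and capitals in the Ly6c1 and Ly6c2 lines mark the 5 positions at which they differ. The Ly6a line is the aligned stretch, with capitals at its 2 differences from Ly6c1.
Ly6c1, chr15:75048476-75048505: aCtTctcacActacaaagtcctgtGtgctC
Ly6c2, chr15:75111632-75111661: aGtActcacGctacaaagtcctgtTtgctG
Ly6a, chr15:74997569-74997598: acttctcacactacaaagtcctgtTtgctG
Of all 50-base windows along Ly6c1-201, 36.7% also occur in another gene, most of them in Ly6c2 and the rest in Ly6a. The share was 33% for Ly6c2-201 and 11.1% for Ly6a-203, whose shared windows lie mostly in Ly6c1, Ly6i and the pseudogene I830127L07Rik. None of the 1073 windows of Ly6e-215 occurs in another gene. How the counting divided reads that match both Ly6c genes is not given in the sources used here, so their separate counts are uncertain, and the pair is also given as a sum.

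Counts assigned to named genes totalled 4865952 to 18004241 in the Ag libraries, 12883084 to 16496692 in the Ag+Costim libraries and 12112839 to 25280667 in the Naive libraries. The CD8+ T cell markers were detected in every library, 8 of 8. Several libraries stood apart. Ag replicate 3 was the shallowest, with 16.9% of its reads counted and a summed level of 6 erythroid markers of 1238 CPM (the counts-per-million scale), against 13.3 to 168 CPM in the other Ag libraries. In Naive replicate 5, 10 myeloid markers summed to 1015 CPM, against 15.7 to 175 CPM in the other Naive libraries and 62.0 to 187 CPM in the primed ones. Of that sum, S100a8 and S100a9 gave 429 and 403 CPM. The same library also differed in T cell genes. Its CD8+ T cell markers summed to 6405 CPM, against 8566 to 10467.5 CPM in the other Naive libraries. Ctla4 was 36.8 CPM against 1.19 to 14.4 CPM. Both values lie within the range of the primed libraries. Summed B cell markers were 1500.1, 1542 and 1761 CPM in Ag replicates 1, 3 and 4 and 589 and 649 CPM in Ag replicates 2 and 5. All Ag libraries ran in lane 2 and all Naive libraries in lane 3, with Ag+Costim replicates 1 to 3 in lane 2 and 4 and 5 in lane 3. In the deposited FPKM table, not used here, the columns of Ag replicate 1 and Naive replicate 5 hold identical values, whereas in the count tables these libraries differ. The study describes the libraries as individual biological replicates, but the labels do not tie them to mice, so p-values measure the spread between these libraries.

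Levels of different genes were compared per length, on the transcripts-per-million (TPM) scale, computed from the transcript counts. In every group the order of the mean level was Ly6e, Ly6c2, Ly6a, Ly6c1. The mean TPM of Ly6e was 1607 ± 227 for Naive, 2285 ± 305 for Ag and 2184 ± 221 for Ag+Costim libraries (SD, n = 5 in each). Ly6c2 averaged 839 ± 373, 1289.6 ± 544 and 1454 ± 240.3 TPM in the same order of groups. Ly6a averaged 407 ± 362, 850.3 ± 666 and 1332 ± 123 TPM, and Ly6c1 184 ± 78.3, 275 ± 123 and 309.7 ± 47.0 TPM. Ly6e exceeded Ly6c2 in all 15 libraries, although the ranges of their TPM overlapped in the Naive and Ag groups. Ly6c2 and Ly6a, neighbours in this order, had overlapping TPM ranges in all 3 groups. Ly6a and Ly6c1 were separate only in the Ag+Costim group, and in 1 Ag library Ly6a was the lower of the pair.

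Ly6e was higher in both primed groups than in Naive cells, with little spread. Its level was 961, 1213, 1191, 1175 and 1431 CPM in Naive replicates 1 to 5. It was 1849.6, 1920.1, 1465, 1981 and 2053 CPM in the Ag replicates and 1656, 1599.7, 1944, 1579.6 and 1532 CPM in the Ag+Costim replicates. Every primed library lay above every Naive library, the closest being Ag replicate 3 and Naive replicate 5, the pair that stood apart above. The fitted log2 difference was 0.73 between Ag and Naive (SE 0.14, 1.66-fold, adjusted p = 0.0135 by edgeR's quasi-likelihood test with Benjamini-Hochberg adjustment). Between Ag+Costim and Naive it was 0.62 (SE 0.14, 1.54-fold, adjusted p = 0.00730). Without Naive replicate 5 these became 0.83 (adjusted p = 0.00220) and 0.74 (adjusted p = 0.00144). Within lane 3, which holds 2 Ag+Costim libraries and the Naive group, the difference was 0.55 (adjusted p = 0.0544), and with lane as a term in the fit it was 0.54 (adjusted p = 0.0673). For Ag against Naive no lane holds both groups, and with lane as a term the difference was 0.60 (adjusted p = 0.626) and no gene was called in that comparison. A fit of the 10 Ag and Naive libraries alone gave 0.72 (adjusted p = 0.141). Costimulation on top of antigen gave a Ly6e difference of -0.10, with a 95% interval from -0.41 to 0.20 (adjusted p = 0.650), and -0.04 within lane 2 (adjusted p = 0.941).

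**Figure D1:**
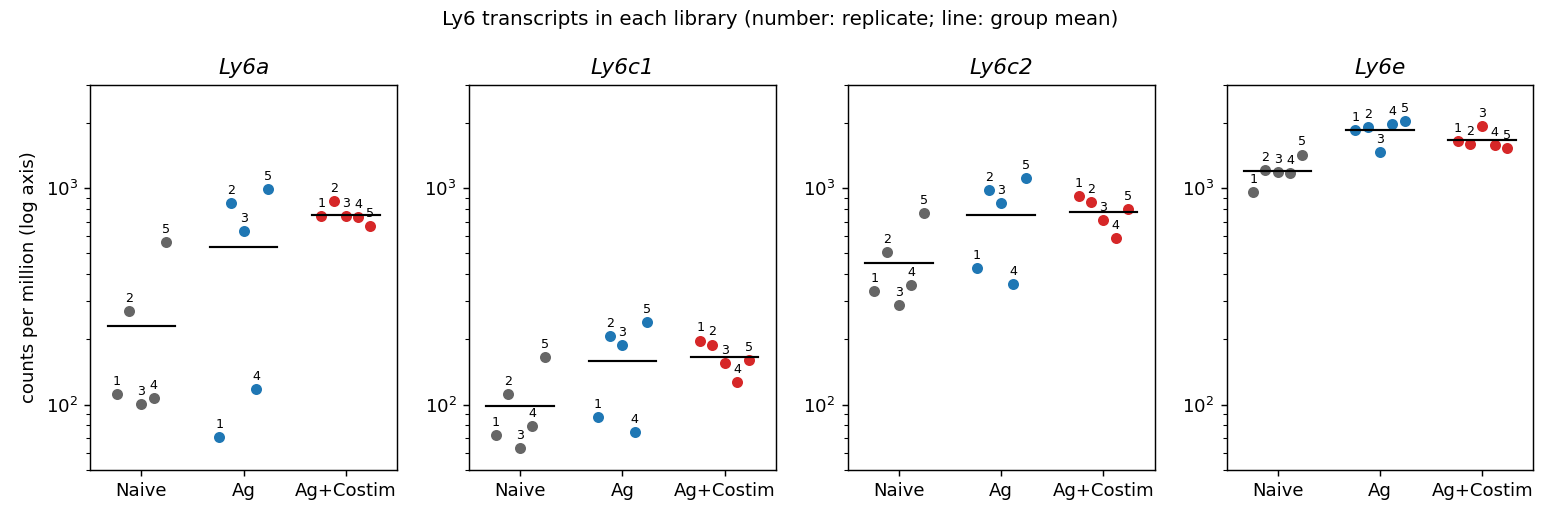
Level of each Ly6 gene on the counts-per-million scale on a log axis, for 5 Naive, 5 Ag and 5 Ag+Costim libraries, with the replicate number beside each point and a line at the group mean. Ly6e in every primed library lies above its Naive libraries, whereas Ly6a, Ly6c1 and Ly6c2 are low in Ag replicates 1 and 4 and high in Naive replicate 5.

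Ly6a, which encodes Sca-1, was higher in Ag+Costim than in Naive cells by 3.52-fold, and it was the member that varied most between libraries. In the Naive replicates it stood at 112, 270.0, 100.1, 107 and 566 CPM. In the Ag replicates it stood at 70.8, 853, 631, 118 and 993 CPM, and in the Ag+Costim replicates at 742, 868, 741, 733 and 670.0 CPM. The Ag+Costim libraries lay close together above the whole Naive group, while the Ag libraries covered both levels, with replicate 1 below every Naive library, replicate 4 just above the 3 lowest Naive libraries, and replicates 2, 3 and 5 near or above the costimulated ones. The log2 difference between Ag+Costim and Naive was 1.81 (SE 0.70, edgeR adjusted p = 0.0478), just past the threshold. It fell short of the threshold without any single Naive library from 1 to 4 or any single Ag+Costim library, at adjusted p of 0.0608 to 0.107, and without Ag replicate 3 (adjusted p = 0.0515), while the difference stayed between 1.63 and 2.53 when any 1 of the 15 libraries was left out. Within lane 3 it was 1.75 (adjusted p = 0.0741), and with lane as a term 1.73 (adjusted p = 0.149). Without Naive replicate 5, the library with the high myeloid marker sum and the lowest CD8+ T cell marker sum of its group, it was 2.53 (adjusted p = 0.0101). The part of myeloid or other cells in its Ly6 level was not tested, and in bulk RNA a change in the share of cells that express a gene and a change in RNA per cell cannot be told apart.

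Antigen alone gave a Ly6a difference from Naive of 1.35 (SE 0.69), whose 95% interval reached from -0.16 to 2.86 (adjusted p = 0.206). Without Naive replicate 5 it was 2.06 (adjusted p = 0.0474), and without Ag replicate 1 it was 1.63 (adjusted p = 0.0821). Adding costimulation to antigen gave 0.46, with an interval from -1.02 to 1.95 (adjusted p = 0.677), and 0.53 within lane 2 (adjusted p = 0.812). All 5 Ag libraries ran in lane 2. The recorded input was 1.4 and 1.8, in a unit the table does not name, for Ag replicates 2 and 5, which had the highest Ly6a, 9.4 for replicate 3 and 10 for replicates 1 and 4, which had the lowest. The part of input amount in the Ly6a level was not tested.

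Ly6c1 and Ly6c2, the Ly6C genes, followed the same libraries. Ly6c2 stood at 336, 509, 289, 355 and 769 CPM in the Naive replicates, at 426, 977, 858, 362 and 1117 CPM in the Ag replicates and at 919, 865, 713, 589.8 and 804 CPM in the Ag+Costim replicates. Ly6c1 stood at 72.3, 111, 63.2, 79.2 and 166 CPM, at 87.1, 208, 188, 74.5 and 239.6 CPM and at 198, 189, 156, 127 and 161 CPM in the same groups. For both genes Ag replicates 1 and 4 lay among the Naive libraries, and Naive replicate 5 lay within the Ag+Costim range, so no pair of groups was separate. The mean of Ly6c2 was 452 ± 196 CPM for Naive, 748 ± 337 CPM for Ag and 778 ± 130.2 CPM for Ag+Costim libraries (SD, n = 5).

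Against Naive cells the Ly6c2 difference was 0.86 in Ag (SE 0.37, edgeR adjusted p = 0.145) and 0.92 in Ag+Costim (SE 0.37, adjusted p = 0.0542). For Ly6c1 it was 0.82 (SE 0.37, adjusted p = 0.162) and 0.89 (SE 0.37, adjusted p = 0.0631). Neither gene was called by edgeR, and summing the pair into 1 feature gave 0.85 (adjusted p = 0.148) and 0.91 (adjusted p = 0.0559). Both passed in Ag+Costim against Naive with DESeq2 (adjusted p = 0.0255 for Ly6c2 and 0.0340 for Ly6c1) and in edgeR's fit of those 10 libraries alone (adjusted p = 0.0177 and 0.0191). Without Naive replicate 5 both Ly6C genes passed in both comparisons, at 1.18 and 1.25 for Ly6c2 (adjusted p = 0.0333 and 0.0114) and 1.14 and 1.21 for Ly6c1 (adjusted p = 0.0400 and 0.0149), while the calls over all genes rose from 1165 to 3871 in Ag and from 7755 to 9164 in Ag+Costim against Naive. Within lane 3 the Ag+Costim difference from Naive was 0.79 for Ly6c2 (adjusted p = 0.130) and 0.71 for Ly6c1 (adjusted p = 0.152). Between Ag+Costim and Ag it was 0.06 for both, with 95% intervals from -0.73 to 0.85 for Ly6c2 and from -0.74 to 0.87 for Ly6c1. Within lane 2 it was 0.17 for Ly6c2 and 0.19 for Ly6c1 (adjusted p = 0.894 and 0.878).

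Ly6c2 supplied most of the counts of the pair in every library. Its share of the summed Ly6c1 and Ly6c2 counts averaged 82.1% ± 0.206 for Naive, 82.6% ± 0.412 for Ag and 82.4% ± 0.524 for Ag+Costim libraries (SD, n = 5). Over all 15 libraries the share ran from 81.8% to 83.3%, while the summed level itself ran from 352 to 1356 CPM. The Wilson 95% interval of the library with the fewest counts of the pair, Ag replicate 3 with 5089, was 81.0% to 83.1% and covers counting error only. The mean share was 0.490 percentage points higher in Ag than in Naive libraries (exact two-sided permutation test, p = 0.0397, adjusted over 3 comparisons p = 0.119). The differences of Ag+Costim from Naive, 0.325 points, and from Ag, -0.165 points, had adjusted p of 0.262 and 0.579 in the same exact permutation test, whose smallest unadjusted p is 0.00794. The proportions of the pair therefore varied little while its sum differed several-fold between libraries, and reads of the shared windows were divided by a rule not known here.

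Across the whole table, Ag against Naive called 6.71% of the 17366 genes tested at an adjusted p below 0.05, 3.05% higher and 3.66% lower. Of the 4 members, 1 was called, Ly6e, and 3 had an unadjusted p below 0.05, against 28.7% of all genes. Ag+Costim against Naive called 44.7% of genes, 21% higher and 23.6% lower, and 2 members, Ly6a and Ly6e, both higher, so a call in that comparison was common. All 4 members had an unadjusted p below 0.05 there, as did 55.7% of all genes. Ag+Costim against Ag called 0.0346% of genes, 0.0288% higher and 0.00576% lower, and 0 members by edgeR. There 0 members had an unadjusted p below 0.05, against 26.8% of genes, and DESeq2 also called 0 members. The CPM of the groups did not overlap for 1 member between Ag and Naive (3.63% of all genes, 1.36% higher), for 2 between Ag+Costim and Naive (45.6%, 18.3% higher) and for 0 between Ag+Costim and Ag (7.04%, 4.84% higher). The median log2 difference over all genes was 0.08, -0.08 and -0.10 in these comparisons, in the order Ag against Naive, Ag+Costim against Naive and Ag+Costim against Ag. Both comparisons with Naive use the same 5 Naive libraries.

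**Figure D2:**
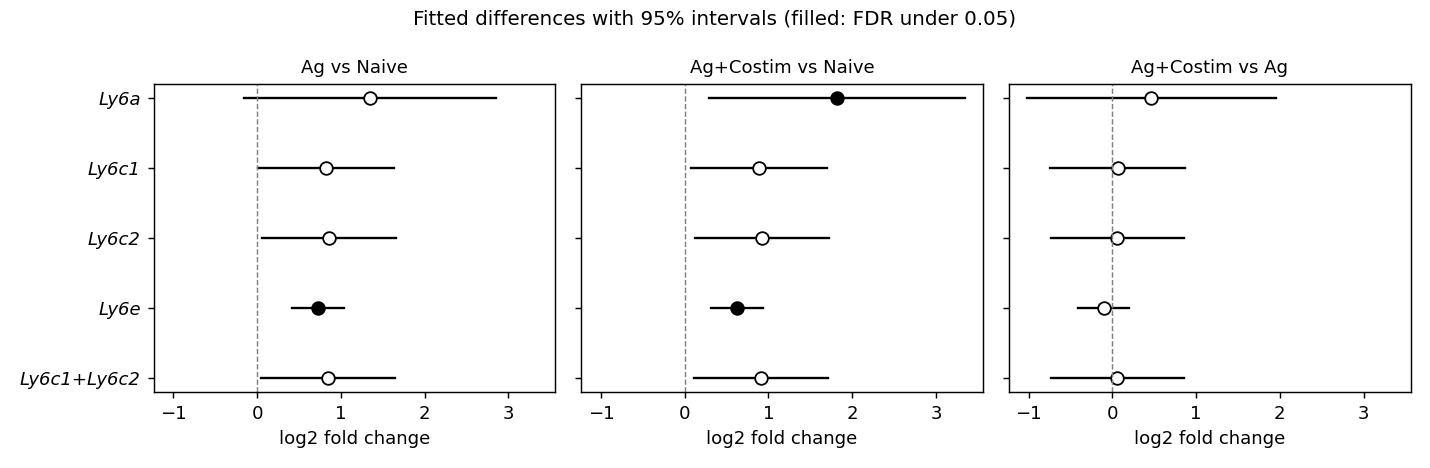
Fitted log2 differences of the 4 Ly6 genes and of the summed Ly6c1 and Ly6c2 counts in 3 comparisons, with bars for the 95% interval and filled circles for an adjusted p below 0.05. The intervals of Ly6a are the widest, and the differences between Ag+Costim and Ag all span 0.

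**Figure D3:**
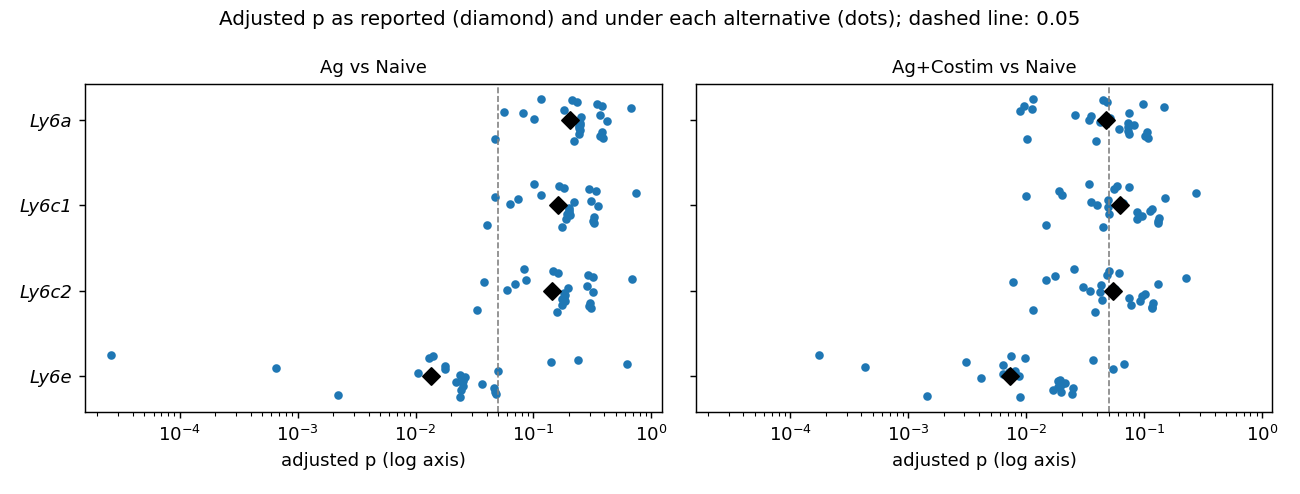
Adjusted p of each Ly6 gene on a log axis in the comparisons of Ag and of Ag+Costim with Naive, with a diamond for the value reported and a dot for each alternative analysis. In Ag+Costim against Naive, Ly6a, Ly6c1 and Ly6c2 lie close to 0.05, with dots on both sides of it, whereas most dots of Ly6e lie below it.

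Within the Ag and Naive groups Ly6a spread more than the other members. Among genes of at least 20 CPM, the highest Ag library of Ly6a was 14.02 times the lowest, a ratio above that of 98.9% of genes, whose median was 1.86. In the Naive group the Ly6a ratio was 5.65, above 97.1% of genes, and in the Ag+Costim group it was 1.295, with 72.3% of genes below it. Ly6e was among the steadier genes in the Ag group, at a ratio of 1.40 with 14.4% of genes below, and its ratio was 1.49 in Naive and 1.27 in Ag+Costim libraries (42.2% and 66.8% of genes below). In the Ag+Costim group Ly6c1 and Ly6c2 spread most, both at 1.56. The fitted biological coefficient of variation was 0.717 for Ly6a, 0.409 for Ly6c1, 0.405 for Ly6c2 and 0.187 for Ly6e, against 0.431 for all genes together. In the same Ag libraries, therefore, Ly6a differed 14.02-fold while Ly6e did not differ by more than 1.40-fold. These libraries also differed across the whole count table, where replicates 1 and 4 were closest to each other and far from replicates 2 and 5.

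Over the 15 libraries, log2 CPM of Ly6c1 and Ly6c2 gave a Pearson r of 0.998 and a Spearman rho of 0.996, given as a description. The libraries differ in group and depth, so each correlation here includes differences between groups. Ly6a followed Ly6c1 and Ly6c2 less closely (r = 0.953 and 0.948), and Ly6e stood further from Ly6a, Ly6c1 and Ly6c2 (r = 0.634, 0.690 and 0.7101). Among 7792 genes compared, those whose pattern was most like Ly6a were Rpa2 (r = 0.989), a subunit of the protein that coats single-stranded DNA, Tmem97 (r = 0.988), the sigma-2 receptor, and Ccne1 (r = 0.988), which encodes cyclin E1. Beside each other, Ly6c1 and Ly6c2 were closest to Smpdl3b (r = 0.976 and 0.979), a GPI-anchored phosphodiesterase, and Ctla2b (r = 0.973 and 0.977). Ly6e was closest to Clta (r = 0.970), the clathrin light chain, Ndfip1 (r = 0.965), an adaptor of ubiquitin ligases, and Mthfsl (r = 0.962). The mean of Smpdl3b was 6.98 CPM for Naive, 19.1 for Ag and 23.97 for Ag+Costim libraries, and that of Rpa2 was 125, 219 and 306 CPM.

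**Figure D4:**
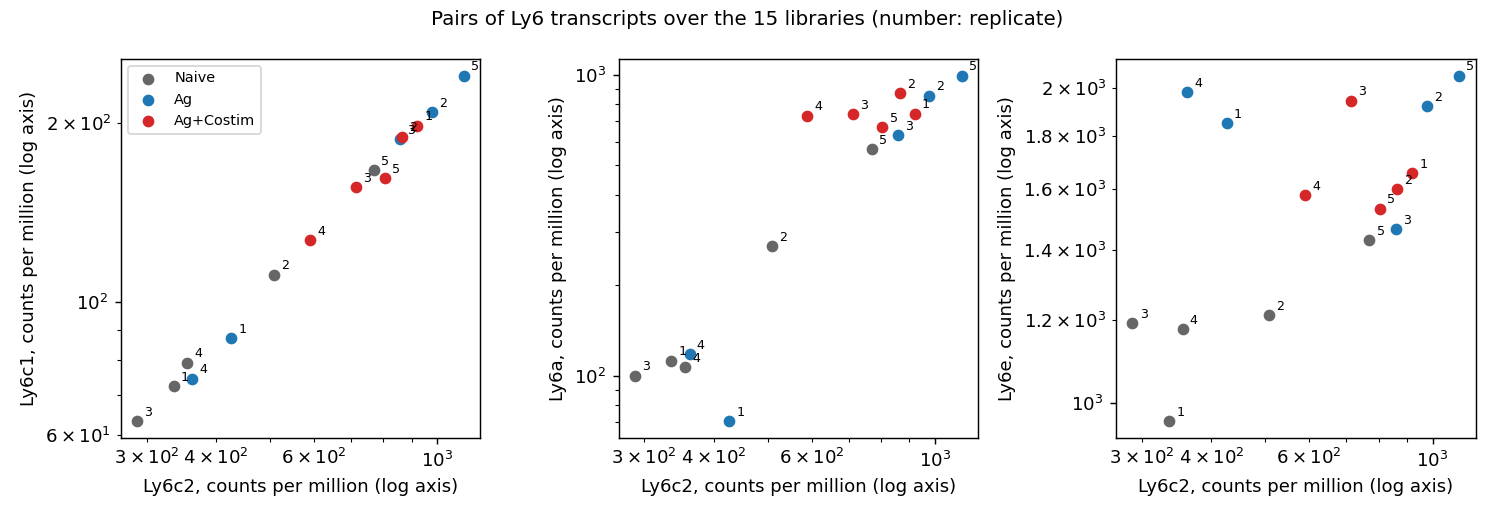
Level of Ly6c1, Ly6a and Ly6e against that of Ly6c2 on the counts-per-million scale on log axes, 1 point for each of the 15 libraries, coloured by group and marked with its replicate number. Ly6c1 falls on a line with Ly6c2, Ly6a shows the same libraries low and high over a wider range, and Ly6e separates the Naive group from the primed groups.

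The gene counts equalled the sum of their transcript counts in all 15 libraries for each member. Ly6c2-201 held 93.8% to 97.1% of Ly6c2 counts in every library, and Ly6e-215 held 66.5% to 87.9% of Ly6e counts. Ly6a counts were divided over several coding transcripts, mainly Ly6a-203, Ly6a-204 and Ly6a-202, the last at 0% to 29.7% in single libraries. Ly6a-203 held 59.4% to 67.6% of Ly6a counts in the Ag+Costim libraries, 21.1% to 54.1% in the Naive libraries and 18.3% to 63.2% in the Ag libraries. In Ag replicates 1, 3 and 4, Ly6a-204 held 55.9%, 55.7% and 54.8%, and in replicates 2 and 5 21.7% and 15.01%. Replicate 3, with a high Ly6a level, was thus close to the low libraries 1 and 4 in the Ly6a-204 share. Ly6a-202 differed among them, at 17.3%, 9.87% and 0% in replicates 1, 3 and 4. The division of Ly6c1 between Ly6c1-201 and Ly6c1-202 was unsteady, with Ly6c1-201 at 16.4% to 99.4% within the Ag+Costim group alone. No test was run on these transcript shares, which rest on the assembler's division of reads among overlapping transcripts.

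The wider Ly6/uPAR family includes secreted and GPI-anchored relatives such as the urokinase receptor Plaur. Of 44 listed genes, 42 were matched to the table and 13, the 4 members included, passed the filter on low counts. Between Ag and Naive 2 were called higher and 1 lower, and between Ag+Costim and Naive 3 higher and 3 lower, against 6.71% and 44.7% of all genes called. Between Ag+Costim and Ag 0 were called by edgeR, 3 had an unadjusted p below 0.05, and DESeq2 called 2, both lower. The called genes were Ly6e, Ly6d and, in Ag+Costim, Ly6a on the higher side and Ly6g5b and, in Ag+Costim, Plaur and Lypd6b on the lower side. The counts without Naive replicate 5 became 6 higher and 3 lower in both comparisons, as calls over all genes also rose, to 3871 and 9164. The median log2 difference of the 13 genes was 0.82, 0.62 and -0.25 in the comparisons of Ag with Naive, Ag+Costim with Naive and Ag+Costim with Ag.

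Plaur, Lypd6b and Ly6g5b had lower levels in costimulated than in Naive cells, the opposite direction to the 4 members. Plaur fell from a mean of 15.6 CPM in Naive to 0.568 CPM in Ag+Costim libraries (log2 difference -4.60, SE 0.86, edgeR adjusted p = 0.00348). Lypd6b, a GPI-anchored relative known from neurons, fell from 30.8 to 2.86 CPM (-3.26, SE 0.61, adjusted p = 0.00347), and Ly6g5b from 4.48 to 0.580 CPM (-2.77, SE 0.42, adjusted p = 0.00168). Ly6g5b also fell between Naive and Ag, by 1.99 on the log2 scale (SE 0.41, edgeR adjusted p = 0.0152). Plaur at -2.59 and Lypd6b at -1.63 did not pass by edgeR (adjusted p = 0.0583 and 0.0874). DESeq2 called both lower in Ag (-2.56 and -1.64, adjusted p = 0.00885 and 0.0268). Naive replicate 5, with the highest Ly6a of its group, had 5.33 CPM of Lypd6b against 26.5 to 43.4 CPM in the other Naive libraries, and 6.52 CPM of Plaur against 9.66 to 21.7 CPM.

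Ly6d, a lymphoid progenitor and B lineage antigen, differed most from Naive among the family genes tested in the Ag group. It stood at 23.0, 0.454, 65.1, 21.7 and 1.4997 CPM in the Ag replicates, at 0.137 to 0.922 CPM in the Naive group and at 1.45 to 4.01 CPM in the Ag+Costim group. The high libraries, Ag replicates 1, 3 and 4, were those with the higher B cell marker sums, which ran from 602 to 1101 CPM in the Naive group, and the part of B cells in the Ly6d level was not tested. The differences from Naive were 5.97 in Ag (SE 1.11, edgeR adjusted p = 0.0119) and 2.87 in Ag+Costim (SE 1.05, adjusted p = 0.0392). Ly6a was high in Ag replicates 2, 3 and 5, so replicate 3 was high for both genes.

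Ly6i and Ly6a2, which share 50-base windows with Ly6a as Ly6c1 does, had small counts. Ly6i averaged 2.12 CPM for Naive, 5.05 for Ag and 8.87 for Ag+Costim libraries (2.20 between Ag+Costim and Naive, edgeR adjusted p = 0.0619, DESeq2 adjusted p = 0.0287), and Ly6a2, annotated as the pseudogene I830127L07Rik, averaged 6.82, 13.4 and 16.1 CPM (1.35, adjusted p = 0.142). Ly6a2 was low in Ag replicates 1 and 4, at 1.81 and 2.45 CPM, and reached 17.1 CPM in Naive replicate 5, the libraries in which Ly6a was low and high as well, and 20 windows of Ly6a-203 occur in it. Ly6g, a granulocyte antigen, stood at 5.53 CPM in Naive replicate 5 and at no more than 1.17 CPM in any other library, and it did not pass the filter. Ly6k, Lynx1 and Ly6m (2010109I03Rik in the annotation) had group means of 0.436 to 3.96 CPM and were called in no comparison by edgeR, while DESeq2 called Ly6m higher in Ag than in Naive (1.52, adjusted p = 0.0444).

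**Figure D5:**
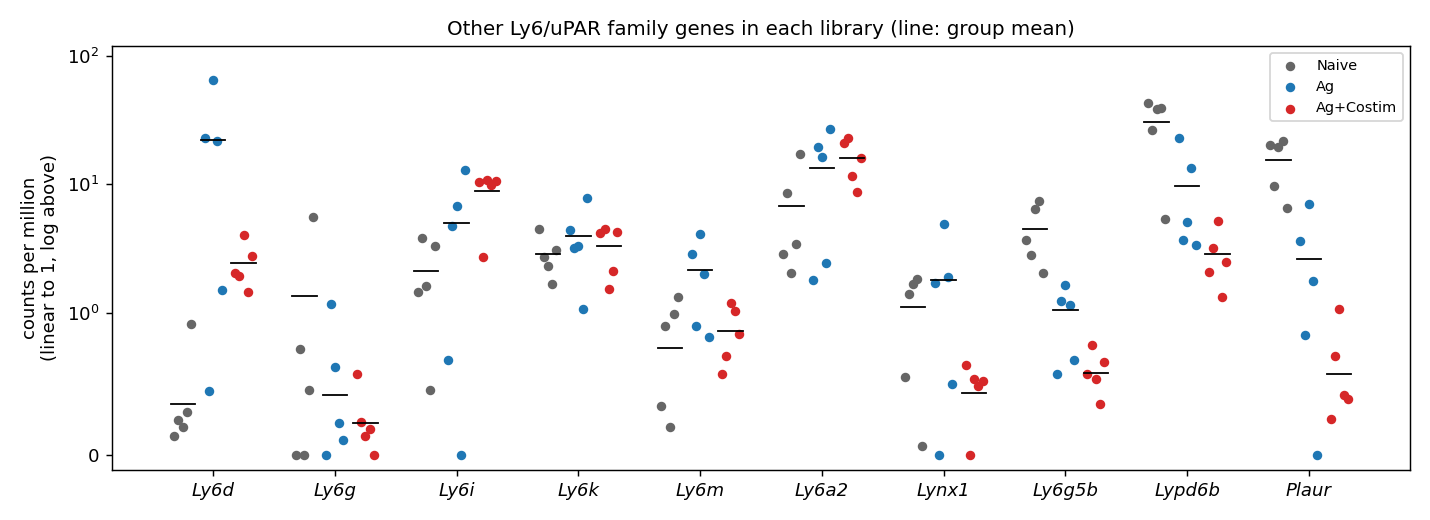
Level of 10 further Ly6/uPAR family genes on the counts-per-million scale, on an axis that is linear up to 1 and logarithmic above, for 5 libraries in each group with a line at the group mean. Ly6d is high in 3 of 5 Ag libraries, and Ly6g5b, Lypd6b and Plaur are lowest in the Ag+Costim group by mean.

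Other GPI-anchored antigens of lymphocytes, a list of 14 genes of which 12 were tested, did not move as 1 group. Between Ag and Naive 4 were called higher and 0 lower, with a median log2 difference of 0.70, and between Ag+Costim and Naive 3 higher and 2 lower, with a median of 0.08 that became -0.08 with library totals as the scaling. Over all genes 3.05% were called higher and 3.66% lower in the first comparison, and 21% and 23.6% in the second. Of the 12, 0 were called by edgeR between Ag+Costim and Ag, while 6 had an unadjusted p below 0.05, DESeq2 called 5 lower, and the median was -0.36. With Naive replicate 5 left out, 6 were called higher in Ag, and 4 higher and 2 lower in Ag+Costim, beside 3871 and 9164 calls over all genes. Cd160, a coreceptor of cytotoxic cells, rose in both primed groups (0.94 and 0.93, adjusted p = 0.0106 and 0.00335). Cd52 rose in Ag (0.65, adjusted p = 0.0165) and differed from Naive by 0.14 in Ag+Costim (adjusted p = 0.380), and the direct difference between Ag+Costim and Ag was -0.50 (adjusted p = 0.0807). Cd48, a ligand of the receptor CD244, was 0.76 higher in Ag (adjusted p = 0.0851) and rose by 0.97 in Ag+Costim (adjusted p = 0.0135). Izumo1r, the folate receptor 4 of regulatory T cells, was 94.5 CPM in Ag against 7.02 CPM in Naive libraries (3.72, adjusted p = 0.0188) and 7.36 CPM in Ag+Costim. That mean came from Ag replicates 1 and 4, at 218 and 219.9 CPM, with 9.16 to 13.8 CPM in the other 3. Nt5e (CD73), an ectoenzyme that makes adenosine, was also high in these libraries, at 108 and 164 CPM against 5.94 to 21.8 CPM. The 5 CD4+ T cell markers summed to 143 and 174 CPM in Ag replicates 1 and 4, the libraries with low Ly6a, and to 54.9 to 67.2 CPM in the other Ag libraries. Most of that sum was Ctla4, which activated CD8+ T cells also express, at 120.05 and 138 CPM. Cd4 itself was 2.29 and 0.918 CPM in replicates 1 and 4 and 0 to 4.52 CPM in the others, and Foxp3 was at most 1.24 CPM. Zbtb7b was 12.1 and 20.8 CPM in replicates 1 and 4 against 1.04 to 4.11 CPM in the other Ag libraries. Cd40lg was 7.73 and 14.3 CPM against 0.833 to 2.67 CPM. In the Naive libraries Zbtb7b was 1.03 to 3.49 CPM and Cd40lg 3.49 to 21.7 CPM. The part of CD4+ T cells in Ag replicates 1 and 4 was not tested. Cd55, which restrains complement, fell from 131 to 31.3 CPM between Naive and Ag+Costim (-1.91, adjusted p = 0.00400), and Art2b, an ADP-ribosyltransferase of T cells, fell by 1.10 on the log2 scale (adjusted p = 0.0404). Thy1 and Bst2 were called in no comparison by edgeR or DESeq2, and Nt5e was called by DESeq2 alone, between Ag+Costim and Ag (-2.56, adjusted p = 0.00307). The fourth gene called in Ag was Prnp, below the level set for naming and named after its values were seen (1.79 in Ag and 1.67 in Ag+Costim, adjusted p = 0.0382 and 0.0161).

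Of 30 genes whose products build and remodel the GPI anchor, 29 were tested, and 0 were called higher and 1 lower between Ag and Naive, against 6.71% of all genes called, with a median of -0.000169 on the log2 scale. The 1 was Piga, which starts anchor synthesis, at 39.1 CPM in Naive and 19.5 CPM in Ag libraries (-0.89, SE 0.18, edgeR adjusted p = 0.0139). In Ag+Costim against Naive 4 rose and 4 fell, against 44.7% of all genes called, with a median of -0.03, and with library totals as the scaling 3 rose and 9 fell. Pigf rose by 1.08 (adjusted p = 0.0226), and Gpaa1, a subunit of the transamidase that attaches the anchor, and Mpdu1, needed for mannose donors, both rose by 0.85 (adjusted p = 0.0171 and 0.0105). Pgap1 and Mppe1, which remodel the anchor, fell by 1.34 and 1.12 on the log2 scale (adjusted p = 0.0131 and 0.00675), and Pign fell by 0.65 (adjusted p = 0.0153). Costimulated against Ag cells gave 0 calls by edgeR, 8 had an unadjusted p below 0.05, and DESeq2 called 1 higher and 4 lower. Without Naive replicate 5, 2 rose and 3 fell in Ag, and 5 rose and 5 fell in Ag+Costim, beside 3871 and 9164 calls over all genes.

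Interferon response genes were listed because Ly6a and Ly6e are known interferon targets. Few of the listed genes were called higher, and the part of interferon in the Ly6 levels was not tested. Of 40 genes, all tested, 1 was called higher and 1 lower between Ag and Naive, with a median of -0.14, beside 3.05% of all genes called higher and 3.66% lower. Between Ag+Costim and Naive 2 were called higher and 13 lower, with a median of -0.24, beside 21% of all genes called higher and 23.6% lower. With scaling factors applied to library sizes of all named genes, an alternative chosen after seeing the data, 3 were called higher and 9 lower. Ifngr2, a chain of the interferon-gamma receptor, fell from 40.0 CPM in Naive to 7.27 CPM in Ag and 1.59 CPM in Ag+Costim libraries (-2.42 and -4.48, edgeR adjusted p = 0.0135 and 0.000590). Oas2 and Oasl1, of the oligoadenylate synthetase family, fell by 3.34 and 2.38 on the log2 scale between Naive and Ag+Costim (adjusted p = 0.0131 and 0.00655). Ifi27l2a was 1.03 higher in Ag than in Naive (adjusted p = 0.0428), a call lost when library totals replaced the TMM scaling (adjusted p = 0.0662). Ag replicates 1 and 4, where Ly6a was lowest, had 988 and 808 CPM of Ifi27l2a. The other Ag libraries had 325 to 521 CPM and the Naive libraries 255 to 343 CPM. Gbp3, an interferon-induced GTPase, and Oas1a were higher in Ag+Costim than in Naive by 1.03 and 0.75 (adjusted p = 0.00598 and 0.0363), the call of Oas1a being lost with library totals (adjusted p = 0.0564). In Ag+Costim against Ag 0 were called by edgeR, 3 had an unadjusted p below 0.05, DESeq2 called 3 lower, and the median was -0.31. Leaving out Naive replicate 5, 4 were called higher and 3 lower in Ag, and 3 higher and 13 lower in Ag+Costim, beside the same 3871 and 9164 calls over all genes.

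RefSeq promoter windows of the GRCm38 build, which span each annotated start, were found for Ly6c1 and Ly6c2, 2 overlapping windows each. The set held no window for Ly6a or Ly6e, so their promoters were not searched. The interferon-gamma-activated motif TTCNNNGAA occurs in 8.3% and the interferon-stimulated response element (ISRE) in 3.44% of the 32851 promoters in that set on either strand. In the 4 Ly6c1 and Ly6c2 promoters 0 matches to either were found, which says only that these letters are not in these windows.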

How the data were processed

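CD8+ T cell poly(A) RNA was amplified, made into libraries without strand information and sequenced. The authors aligned reads to mm10 with HISAT2 2.1.0 and deposited whole-number counts per gene and per transcript, with SAMtools 1.9, StringTie 2.1.0, DESeq2 1.30.1 and R 4.0.5 named in the submitters' processing notes. A deposited FPKM table was not used, because its columns for Ag replicate 1 and Naive replicate 5 are identical. Of 81881 entries, 26345 carry no gene name, hold 0.0818% of counts and were left out.

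Counts of all 15 libraries were fitted together in R 4.3.3 with edgeR 4.0.16 (filterByExpr, TMM scaling factors, robust glmQLFit, 1 coefficient per group, 12 residual degrees of freedom), and glmQLFTest p-values were adjusted by Benjamini-Hochberg over the 17366 genes tested, with a call at 0.05. The standard error is the log2 difference divided by the square root of the F statistic. CPM used the total of named genes, and correlations used log2 CPM with a prior count of 2. TPM was computed from transcript counts and lengths. The share of Ly6c2 was compared with an exact two-sided permutation test over libraries. DESeq2 1.42.0, other scalings, no filter on low counts, lane and replicate terms and the omission of libraries were alternatives. The scripts were tested on simulated data.

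The members, gene lists and tests were chosen with earlier results of these data known. Family genes were named at a group mean of at least 1 CPM, other antigens and pattern neighbours at 20 CPM, and up to 3 called genes per direction of the anchor synthesis and interferon lists at 5 CPM. Total counts of 4865952 to 25280667 per library set the counting precision, and replicates differed by more than sampling noise (lowest chi-square per degree of freedom 5.62). The Ag libraries were not alike on this measure. It was 8.70 between Ag replicates 1 and 4 and 24.6 between replicates 2 and 5. Either of the first pair against either of the second gave 171 to 249, and replicate 3 against the other Ag libraries gave 101 to 138.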

Additional observations from a re-analysis of the deposited data

Results flagged for a closer look

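In 87 sets of 5 libraries, the highest or lowest value was compared with the rest by Dixon's ratio, which chance alone passes in about 1 of 20 sets, and 8 sets (9.2%) held a library far from the others. Ag+Costim replicate 5 had the highest Ly6c2 share of the Ly6C counts, 83.3%, against 82.0% to 82.3% in the other Ag+Costim libraries. Ly6c2-201 held 93.8% of Ly6c2 counts in Ag replicate 1 (95.7% to 96.2% for the remaining Ag libraries) and 94.0% in Naive replicate 3 (96.4% to 97.1% for the remaining Naive libraries). Ly6e-215 held 68.1% of Ly6e counts in Ag replicate 5, against 82.5% to 87.9%. Naive replicate 5 stood apart for Ly6g, at 5.53 CPM against 0 to 0.743 CPM, and for Ly6d, at 0.922 CPM against 0.137 to 0.305 CPM. Ag+Costim replicate 2 was low for Ly6i, at 2.72 CPM against 9.82 to 10.8 CPM, and for Lynx1, listed at 0 CPM against 0.485 to 0.634 CPM.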

How the results depend on the processing

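Limits: lane and group are confounded for Ag against Naive, Naive replicate 5 moves most Ly6 results, and the 5 libraries per group leave wide intervals for Ly6a. The cause of each change below was not tested. Ly6e kept its call against Naive in all 15 omissions of 1 library, at 0.64 to 0.83 in Ag and 0.56 to 0.74 in Ag+Costim.

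In Ag against Naive, omitting 1 library gave 0.95 to 2.06 for Ly6a, 0.58 to 1.14 for Ly6c1, 0.61 to 1.18 for Ly6c2, 0.61 to 1.17 for their sum, and 1 to 4 members called. In Ag+Costim against Naive it gave 1.63 to 2.53 for Ly6a, with the call lost in 10 of 15, 0.77 to 1.21 for Ly6c1, 0.80 to 1.25 for Ly6c2, 0.80 to 1.24 for the sum, and 1 to 4 members called. In Ag+Costim against Ag, signs changed without Ag replicate 1 (Ly6c1 -0.12, Ly6c2 -0.12, sum -0.12), without Ag replicate 4 (-0.13, -0.12 and -0.13), without Ag+Costim replicate 1 (-0.0016, -0.00062 and -0.00085) and, for Ly6e, without Ag replicate 2 (0.029), none past the threshold. The range was -0.13 to 0.33 for Ly6c1, -0.12 to 0.32 for Ly6c2, -0.13 to 0.32 for the sum and -0.17 to 0.029 for Ly6e. The Ag minus Naive difference in Ly6c2 share was 0.372 to 0.615 points, past the threshold without Ag replicate 3 (exact permutation test, adjusted p = 0.0238).

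Ly6c1, Ly6c2 and their sum passed in Ag+Costim against Naive with DESeq2 (0.86, 0.89 and 0.89), in a fit of 10 libraries (0.83, 0.86 and 0.86), without Ag 3 and Naive 5 (1.29, 1.33 and 1.32) and with scaling on all named genes, chosen after seeing the data (0.95, 0.98 and 0.98), each with 4 members called. Without Ag replicate 1 they were 0.88, 0.90 and 0.90, also called. Without Ag 3 and Naive 5, Ag against Naive gave 1.12, 1.17 and 1.16, with 3 members called. Without a filter on low counts, Ly6e was 0.66 in Ag against Naive and not called (0 members), it turned to 0.13 between Ag+Costim and Ag, and in Ag+Costim against Naive Ly6a was 2.02 and not called while Ly6c2 at 1.11 and the sum at 1.10 were. The 10-library fit of Ag and Naive gave Ly6e 0.72, not called (0 members). With lane as a term 0 members were called in any comparison: Ly6e was 0.60 in Ag, and Ly6a 1.73 and Ly6e 0.54 in Ag+Costim against Naive. Within lane 3 these were 1.75 and 0.55, with 0 called.

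The replicate numbers were not taken to pair the libraries. Same-numbered libraries share a recorded sex in all 3 groups, and 3 of 5 Ag and Naive pairs correlated at 0.41 to 0.47, but not every pair did: the deviations correlated at -0.32 to 0.47 for Ag and Naive, -0.25 to 0.17 for Ag+Costim and Ag and -0.16 to 0.12 for Ag+Costim and Naive. With a replicate block, Ly6c1 (1.01), Ly6c2 (1.03) and the sum (1.03) were called in Ag+Costim against Naive, 4 members in all. Across all genes, calls in Ag against Naive numbered 1165 as reported, 2778 with DESeq2, 208 without the filter, 6 in the 10-library fit, 0 with lane and 1660 with the block. In Ag+Costim against Naive they numbered 7755, 9196, 4158, 10205, 943 and 7833, and in Ag+Costim against Ag 6, 2533, 3, 0, 0 and 0.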
